A study of Mus musculus with 6 samples.

Results

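Exosomes are small vesicles that form when the membrane of a late endosome buds inward and the filled endosome, a multivesicular body, fuses with the cell surface instead of the lysosome. The genes described here encode this machinery: tetraspanins of the vesicle membrane, the ESCRT complexes that bud and cut the vesicles, the syntenin and ALIX adaptors, Rab GTPases that move and dock the endosomes, and enzymes that change membrane lipids. They were chosen by symbol, from a list of 38 genes, and all 38 were found among the 26264 gene symbols counted in each library. All 38 also passed the filter on low counts, which left 14739 genes for testing. The rule that picks them uses symbols and not measured values, though the list was chosen with earlier results of these data known. The series compared the basolateral amygdala, a brain region of fear and anxiety, of 3 unstressed control mice with that of 3 mice under chronic restraint stress, and its title names neuronal exosomes. All 6 mice were male, and 1 library of ribosomal RNA-depleted total RNA was made from the dissected tissue of each replicate. The labels give no strain, age, genotype or stress schedule, and name no agent or transgene in either group. The groups are labelled Ctrl and CRS, and are called control and stress below.

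Vesicles enter multivesicular bodies by more than one route. In the ESCRT route, ESCRT-0 gathers ubiquitinated cargo, ESCRT-I and ESCRT-II deform the membrane, ESCRT-III filaments pinch off the vesicle, and the VPS4 ATPase takes the filaments apart for reuse. In the other routes syntenin and ALIX, ceramide made by a sphingomyelinase, tetraspanins or flotillins take a larger part. In brain, neurons, oligodendrocytes and other glia all release exosomes, and the same proteins also serve receptor breakdown, so mRNA levels of the machinery are not a measure of vesicle number.

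The libraries held 9859449 to 10233706 counts in genes. The 38 genes together took 0.257 to 0.271% of them, and each had at least 49 counts in every library. Glutamatergic neuron genes of the amygdala and neighbouring cortex were present in every library, among them Slc17a7, the vesicular glutamate transporter, at 719 to 1184 CPM and Rspo2 at 12.02 to 40.9 CPM (CPM, counts per 1000000 counts in genes, after scaling of the library sizes). The libraries differed in RNA of neighbouring tissue. The summed level of 10 choroid plexus markers stood at 2398, 4251 and 42.4 CPM (controls 1 to 3) and at 13.8, 6123 and 25.03 CPM (stress 1 to 3), with Ttr, the transthyretin gene that defines this tissue, at 2128, 3777 and 18.9 CPM and 2.87, 5553 and 8.34 CPM. No choroid plexus marker was at 0 in any library, but some rested on 1 count, such as Folr1 in stress 1 and stress 3 and Kcnj13 in stress 1. The sum of 10 oligodendrocyte markers stood at 3602, 2492 and 2274 CPM (controls 1 to 3) and at 1777, 2557 and 2010 CPM (stress 1 to 3), with the myelin gene Mbp at 533 to 938 CPM over the 6 libraries. The sum of 10 striatal and central amygdala markers ran from 661 to 1283 CPM (control) and from 135 to 703 CPM (stress), lowest in stress 1, where Isl1 was at 0, and 10 of 10 of these markers were lower under stress. The 10 of 10 oligodendrocyte markers were lower under stress as well, and none of either list passed the test. Of 8 markers each, 1 was higher and 7 lower under stress for astrocytes, 2 and 6 for microglia, 2 and 6 for endothelium, 1 and 7 for meningeal fibroblasts, and 8 and 0 for glutamatergic neurons, again with none past the test. Replicates within a group are biological, per the series' design text. In bulk tissue, fewer cells of a type and less RNA per cell cannot be told apart.

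The main comparison asked whether expression of the machinery differed between stressed and control amygdala. The summed level of the 38 genes stood at 2676, 2690 and 2618 CPM (controls 1 to 3) and at 2618, 2646 and 2639 CPM (stress 1 to 3), or 2661 ± 38.1 and 2635 ± 14.4 CPM (SD, n = 3 each). These sums overlapped, and control 3 and stress 1, the lowest of each group, were nearly equal. The log2 fold changes of single genes (stress minus control) ran from -0.16 for Rab27a, a GTPase that docks multivesicular bodies, to 0.20 for Vps37b, an ESCRT-I subunit. Of the 38 genes 14 were above 0 and 24 below 0, with a median of -0.04, beside 7141 above (48.4%) and 7598 below (51.6%) with a median of -0.0044 over all 14739 genes tested. The median of the 38 was 0.00064 without control 1, 0.0022 without control 2 and 0.0026 without stress 3, and 0.0051 and 0.0012 with the choroid plexus or the oligodendrocyte level as a covariate, so its sign rested on single libraries and on the fit.

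No gene of the machinery passed the test. In edgeR's quasi-likelihood test 0 of 38 had an adjusted p under 0.05, and their adjusted p ran from 0.997 to 0.999, where 0 of all genes tested (0%) passed. At an unadjusted p under 0.05 there were 0 of 38, beside 496 of all genes (3.37%, made up of 1.33% higher and 2.04% lower under stress). With 1 library left out, edgeR's test gave such a p for 2 of the 38 without stress 1 (beside 379 of 14946 genes). It did so for 1 without stress 2 (beside 961 of 14944) and 2 without control 3 (beside 777 of 14968). There was 1 without control 2 (beside 477 of 14899), and 0 without control 1 (beside 234 of 14956) or stress 3 (beside 598 of 14969). Each unadjusted p under 0.05 given below for a single gene comes from these fits. DESeq2 called 0 of 38 and 2 of 20912 genes, edgeR's likelihood ratio test 0 of 38 and 4 of 14739, and limma-voom 0 of 38 and 0 of 14739. The groups did not overlap for 3 of the 38 genes, all of them lower under stress, beside 8.28% of all genes in either direction and 4.48% in that direction. Of the 38, 0 were higher without overlap, beside 3.8% of all genes. The 3 lower genes were Vps4b, Pdcd6ip and Rab35, and with DESeq2's size factors the separation held for Pdcd6ip and not for Vps4b and Rab35. With 1 library left out, where fewer samples separate more easily, the count of lower genes was 9 of 38 without control 3 (23.7%, beside 12% of all genes), 5 without control 2 (13.2%, beside 9.26%), stress 1 (beside 8.41%) or stress 3 (beside 10.2%), 3 without control 1 (7.89%, beside 6.99%) and 2 without stress 2 (5.26%, beside 11.9%). The count of separate genes thus changed with the libraries kept, and the difference from the background was not tested. The data still bound the size of a change. The 95% interval lay inside 1.5-fold either way for 35 of the 38 genes, beside 69.8% of all genes tested. All genes tested include less abundant ones, and the share was not taken over genes as abundant as the 38. The exceptions among the 38 were the tetraspanins Cd63, Cd9 and Cd82.

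**Figure D1:**
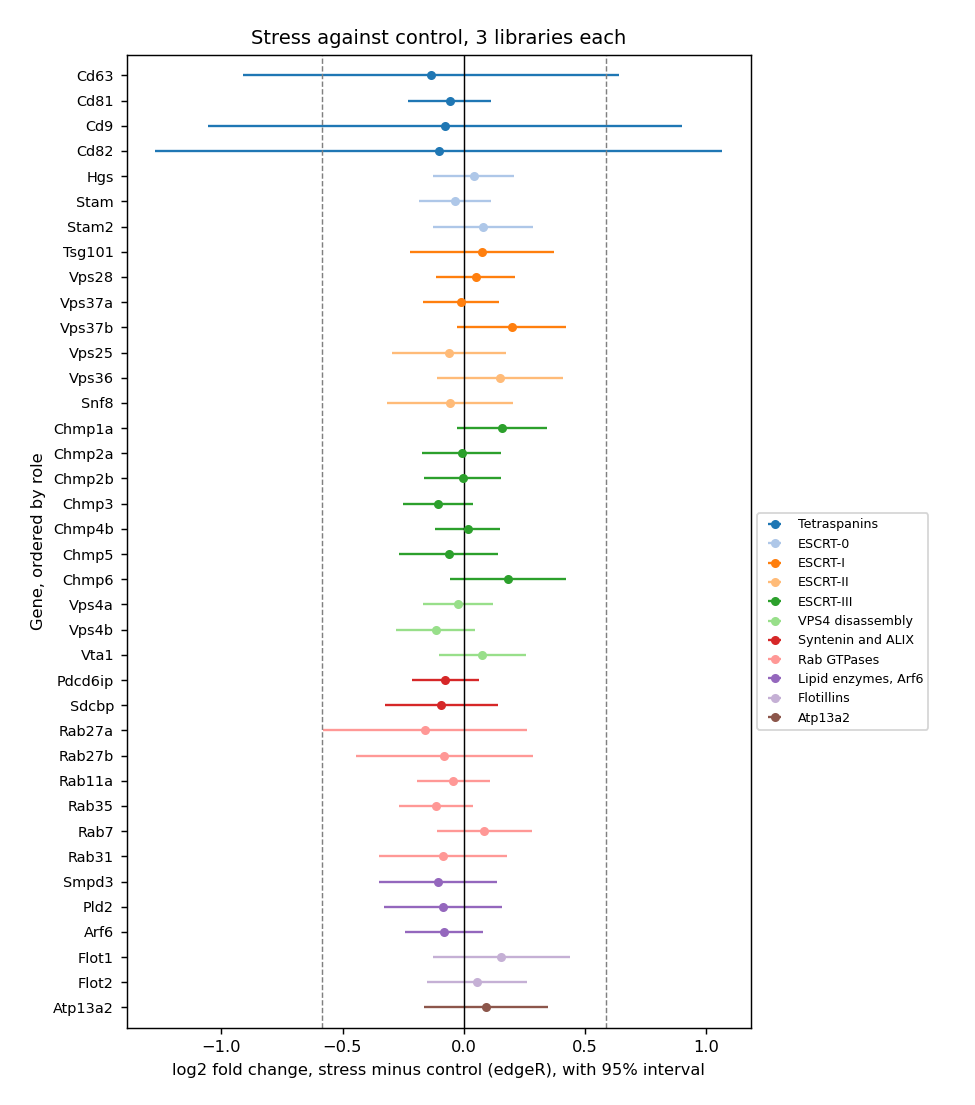
Log2 fold change of each gene, stress minus control, with its 95% interval from edgeR's quasi-likelihood test on 3 libraries per group. Colours mark the roles, the solid line is 0 and the dashed lines are 1.5-fold either way. All 38 intervals include 0, and those of Cd63, Cd9 and Cd82 are the widest.

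Levels of different genes were compared as CPM per kb of merged exon, averaged over the 6 libraries. Cd81 stood at 169 CPM per kb, followed by Chmp4b, the main filament protein of ESCRT-III, at 66.4, Rab11a, a recycling endosome GTPase, at 65.4, Vps28, a core subunit of ESCRT-I, at 64.5 and Chmp2a, which links ESCRT-III to VPS4, at 55.5 CPM per kb. The levels of Chmp4b, Rab11a and Vps28 did not differ beyond their spread over libraries. The lowest levels were those of Rab27a at 3.23, Pld2, a phospholipase that makes phosphatidic acid, at 4.003, Cd63 at 5.20 and Cd82 at 5.62 CPM per kb. Cd63, the tetraspanin most used to mark exosomes, and Cd82 varied over libraries, and in stress 2 Cd63 was at 7.02 and Cd82 at 9.07 CPM per kb, above Vps4b at 6.76 and Rab27b at 6.48. Of the 38 genes 29 exceeded 10 CPM per kb.

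**Figure D2:**
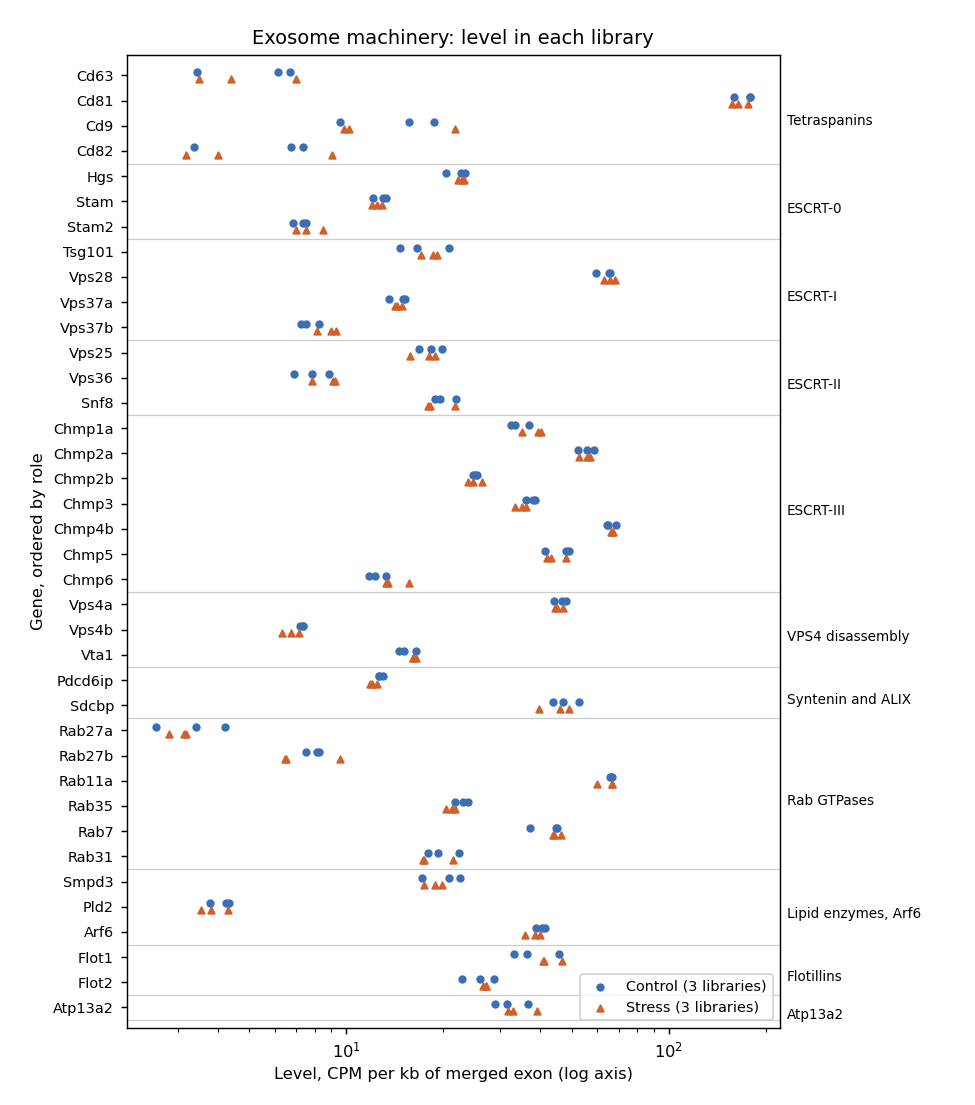
Level of each gene in each library, in CPM per kb of merged exon on a log axis, with controls as circles and stress libraries as triangles, ordered by role. Cd81 stands apart at the top near 169 CPM per kb, and the points of Cd63, Cd9 and Cd82 spread further than those of the other genes.

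Most of the machinery differed little from mouse to mouse, by a median close to that of other genes of such abundance. The highest library exceeded the lowest by a median of 1.23-fold over the 38 genes, and by at most 1.5-fold for 34 of them, beside a median of 1.32-fold over all genes tested and 1.24-fold over the tested genes at least as abundant as the lowest of the 38. Rab27a reached 1.63-fold, Cd63 2.03-fold, Cd9 2.27-fold and Cd82 2.84-fold. Control 3 was the lowest library for 13 genes and stress 1 for 11, while control 2 was the highest for 10 and control 1 for 9. Such counts were not made over all genes. The mean log2 level of all genes tested, against the control mean, was below 0 in control 3 (-0.026), stress 1 (-0.065) and stress 3 (-0.062), and above 0 in the other libraries.

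**Figure D3:**
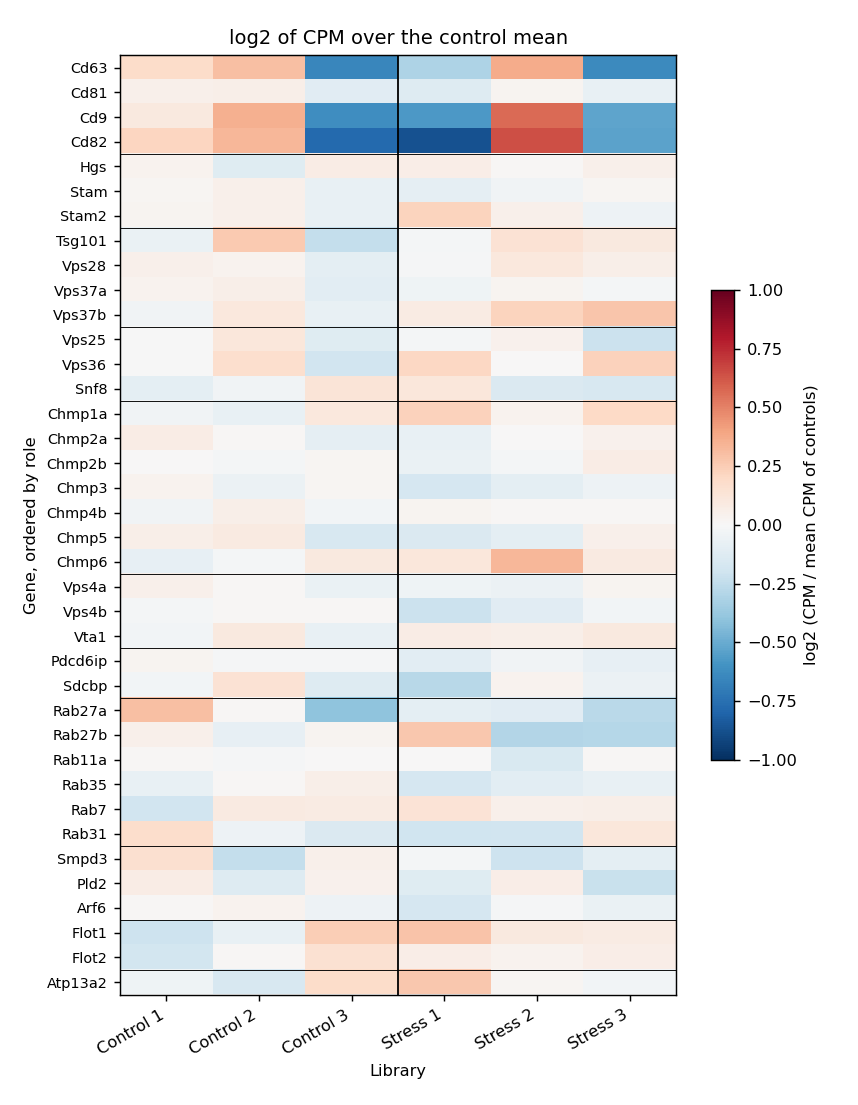
Log2 of each gene's CPM over the mean of the 3 controls, by library (columns) and gene (rows, ordered by role), red above and blue below the control mean. Cd63, Cd9 and Cd82 are red in controls 1 and 2 and stress 2 and blue in the other libraries, and most other rows are pale.

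The tetraspanins are proteins with 4 membrane passes that organise the vesicle membrane and are the usual surface markers of exosomes. Cd63 stood at 8.95, 9.70 and 5.01 CPM (controls 1 to 3) and at 6.37, 10.2 and 5.07 CPM (stress 1 to 3). Cd9 stood at 19.3, 23.1 and 11.8 CPM (controls 1 to 3) and at 12.1, 26.7 and 12.5 CPM (stress 1 to 3). Cd82 stood at 13.02, 14.2 and 6.54 CPM (controls 1 to 3) and at 6.16, 17.5 and 7.75 CPM (stress 1 to 3). All of them were high in controls 1 and 2 and stress 2 and low in control 3, stress 1 and stress 3, so each group held libraries of either kind and the groups overlapped. Cd81 stood at 274, 275 and 245 CPM (controls 1 to 3) and at 241, 269.9 and 251 CPM (stress 1 to 3). Cd81 was also higher in controls 1 and 2 and stress 2 than in the rest, in a much narrower range, with a ratio of 1.14 between the highest and lowest library. Against control the log2 fold changes were -0.13 ± 0.33 for Cd63, -0.08 ± 0.40 for Cd9, -0.10 ± 0.48 for Cd82 and -0.06 ± 0.07 for Cd81. The 95% intervals ran from -0.91 to 0.64 for Cd63, from -1.06 to 0.90 for Cd9, from -1.27 to 1.07 for Cd82 and from -0.23 to 0.11 for Cd81. Only that of Cd81 was narrower than 1.5-fold either way.

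The libraries with high Cd63, Cd9 and Cd82 were those with high Ttr. All 10 of 10 choroid plexus markers were higher in each of controls 1 and 2 and stress 2 than in each other library, as were 8 of 10 oligodendrocyte markers. Among the 38 exosome genes 8 showed this order (Cd63, Cd81, Cd9, Cd82, Vps37a, Vps25, Sdcbp and Arf6), beside 11.9% of all genes tested, and all 4 tetraspanins were among them. The part of choroid plexus or oligodendrocyte RNA in the tetraspanin levels was not tested. With the choroid plexus level as a covariate the stress differences of the 3 variable tetraspanins turned above 0, to 0.14 for Cd63, 0.23 for Cd9 and 0.25 for Cd82, and with the oligodendrocyte level they were 0.21, 0.30 and 0.41. None was called in either fit. In the choroid plexus fit edgeR's unadjusted p was 0.461 for Cd63, 0.0567 for Cd9 and 0.0862 for Cd82. All 10 oligodendrocyte markers were lower under stress, so that covariate and the group cannot fully be told apart. Without control 1, control 2 and stress 2, control 3 was the single control. Its spread was taken to be like that of the stress libraries. The differences of Cd63, Cd9 and Cd82 were then 0.19, 0.07 and 0.09. Without stress 2 they were -0.46, -0.55 and -0.69, and without control 3 they were -0.37, -0.31 and -0.37, so the sign and size of the difference of these genes rested on which libraries entered.

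**Figure D4:**
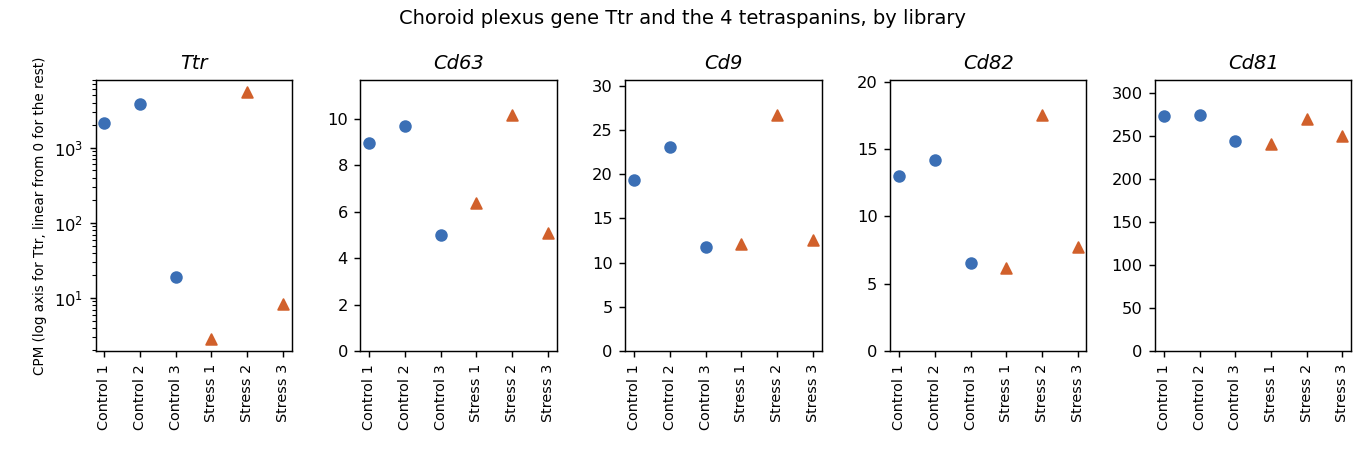
CPM of the choroid plexus gene Ttr (log axis) and of the 4 tetraspanins (linear axes from 0) in each of the 6 libraries, with controls as circles and stress as triangles. Cd63, Cd9 and Cd82 are high in the same 3 libraries as Ttr, and Cd81 varies by 1.14-fold in all.

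The promoters of Cd63, Cd9 and Cd81 are shown because Cd63 and Cd9 were high and low in the same libraries while Cd81 varied little. That of Cd82, the tetraspanin that varied most, is not printed. RefSeq promoter windows (GRCm38.p6) matched 28 of the 38 genes, all but Vps28, Vps37a, Vps37b, Snf8, Chmp6, Sdcbp, Rab27b, Smpd3, Arf6 and Flot1. Each sequence below lies within the 250 bases before the start annotated by RefSeq, on the strand of the gene, and capitals mark GC boxes. For Cd9 the 31 bases next to that start belong to a GENCODE M21 transcript that begins earlier, and are not printed. They lie at chr10:128909095-128909344 (plus strand) for Cd63, chr6:125494792-125495010 (minus strand) for Cd9 and chr7:143052500-143052749 (plus strand) for Cd81.
Cd63: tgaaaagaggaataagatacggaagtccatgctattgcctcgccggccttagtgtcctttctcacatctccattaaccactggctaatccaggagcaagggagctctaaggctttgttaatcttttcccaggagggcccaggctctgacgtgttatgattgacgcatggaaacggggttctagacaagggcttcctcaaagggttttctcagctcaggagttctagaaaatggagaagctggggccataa
Cd9: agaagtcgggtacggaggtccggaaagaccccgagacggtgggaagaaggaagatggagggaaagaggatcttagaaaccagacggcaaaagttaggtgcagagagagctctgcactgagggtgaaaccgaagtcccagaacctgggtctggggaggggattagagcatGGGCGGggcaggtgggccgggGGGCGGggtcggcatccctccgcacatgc
Cd81: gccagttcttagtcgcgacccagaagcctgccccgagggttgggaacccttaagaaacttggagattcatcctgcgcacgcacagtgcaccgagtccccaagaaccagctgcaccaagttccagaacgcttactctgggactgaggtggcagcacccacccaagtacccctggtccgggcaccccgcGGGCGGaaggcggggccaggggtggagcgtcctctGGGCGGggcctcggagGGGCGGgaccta
The motifs searched, on both strands, were the GC box GGGCGG, known as the SP1 motif, the ETS motif CCGGAAGT, the E-box CACGTG, whose 2 strands read alike, and the TATA box TATAAA. No searched motif contains another. The Cd63 window held none of them, that of Cd9 held 2 GC boxes and that of Cd81 held 3. The window of Cd82 held a GC box as well, and a link between GC boxes and the spread of levels was not tested. Over the 28 genes with a window, 17 held a GC box (60.7%, beside 35.4% of 27025 genes with a window of this length), 3 held the ETS motif (10.7%, beside 3.23%), 2 the E-box (7.14%, beside 6.86%) and 1 the TATA box (3.57%, beside 14.3%). The median GC content was 61.4% for the 28 genes and 52.4% for all. These matches describe letters and not binding.

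ESCRT-0 begins the sorting of cargo. Here and below, values with ± are means and SDs of 3 libraries for CPM, and estimates with standard errors for log2 fold changes. Hgs, which encodes the ubiquitin-binding subunit HRS, was at 64.5 ± 4.64 CPM (control) and 66.4 ± 1.39 CPM (stress), and its partners Stam and Stam2 were at 95.8 ± 4.41 CPM (control) and 93.6 ± 3.45 CPM (stress) and at 38.4 ± 1.78 CPM (control) and 40.6 ± 3.96 CPM (stress). Their log2 fold changes were 0.04 ± 0.07, -0.04 ± 0.06 and 0.08 ± 0.09. Stam2 stood at 39.1, 39.8 and 36.4 CPM (controls 1 to 3) and at 44.9, 39.9 and 37.05 CPM (stress 1 to 3). Stress 1 was the highest library for Stam2, and without it the log2 fold change was 0.0025.

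ESCRT-I links the cargo to the budding machinery. Tsg101 stood at 32.3, 40.6 and 28.7 CPM (controls 1 to 3) and at 33.4, 37.4 and 36.4 CPM (stress 1 to 3). Tsg101, a ubiquitin-binding subunit, varied by 1.41-fold over the libraries with control 2 highest and control 3 lowest, and its log2 fold change was 0.07 ± 0.13. Vps28 was at 64.01 ± 3.58 CPM (control) and 66.2 ± 2.63 CPM (stress) (0.05 ± 0.07), and Vps37a, a subunit that helps hold the complex together, at 93.2 ± 5.67 CPM (control) and 92.5 ± 2.51 CPM (stress) (-0.01 ± 0.07). Vps37b stood at 18.9, 20.8 and 18.3 CPM (controls 1 to 3) and at 20.4, 22.6 and 23.4 CPM (stress 1 to 3). Vps37b, the alternative subunit to Vps37a, had the largest fold change of the 38 genes above 0, 0.20 ± 0.10, with an interval from -0.03 to 0.42 and an unadjusted p of 0.0773 in edgeR's test. Its groups overlapped, since stress 1 lay below control 2. Without stress 1 the log2 fold change was 0.25, with an unadjusted p of 0.0450 and an adjusted p of 1 in edgeR's test.

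ESCRT-II bridges ESCRT-I and ESCRT-III. Its subunits Vps25, Vps36 and Snf8 summed to 74.3 to 83.9 CPM over the libraries. Vps25 was at 30.03 ± 2.45 CPM (control) and 28.8 ± 2.68 CPM (stress) (-0.06 ± 0.10) and Snf8 at 20.2 ± 1.66 CPM (control) and 19.4 ± 2.12 CPM (stress) (-0.06 ± 0.11). Vps36 stood at 28.03, 31.5 and 24.6 CPM (controls 1 to 3) and at 32.4, 28.1 and 32.98 CPM (stress 1 to 3). Vps36, the subunit that binds ubiquitin and lipid, was at 0.15 ± 0.11, with control 3 as its lowest library. Without control 3 this was 0.07, and without control 1, control 2 and stress 2, where control 3 was the single control, it was 0.41.

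ESCRT-III forms the filaments that cut the neck of the vesicle, and its 7 genes summed to 486 ± 4.15 CPM (control) and 487 ± 12.5 CPM (stress; SD, n = 3 each). Of the 7, 3 had a log2 fold change above 0 and 4 below, with a median of -0.0046. Chmp1a stood at 71.7, 69.5 and 78.9 CPM (controls 1 to 3) and at 86.2, 75.1 and 84.03 CPM (stress 1 to 3). Chmp1a, a late-acting subunit, was higher in stress 1 and stress 3 than in every control, while stress 2 lay within the controls. Its log2 fold change was 0.16 ± 0.08, with an unadjusted p of 0.0860 in edgeR's test. Without stress 2 it was 0.22 (unadjusted p of 0.0319, adjusted p of 0.762, edgeR), and without control 3 it was 0.21 (unadjusted p of 0.0373, adjusted p of 0.855). Chmp6 stood at 18.3, 19.1 and 20.7 CPM (controls 1 to 3) and at 20.9, 24.4 and 20.7 CPM (stress 1 to 3). Chmp6, which starts filament assembly after ESCRT-II, was at 0.18 ± 0.10, highest in stress 2. Chmp3 stood at 110.4, 103 and 109 CPM (controls 1 to 3) and at 95.6, 101 and 104 CPM (stress 1 to 3). Chmp3, which acts with Chmp2a to recruit VPS4, was at -0.11 ± 0.06. The lowest control of Chmp3 lay between the highest and the middle stress library. The filament gene Chmp4b was the steadiest of the 38, with a ratio of 1.07 between the highest and lowest library and a log2 fold change of 0.02 ± 0.06, which turned to -0.0012 with total counts as the scale. Chmp2a, Chmp2b and Chmp5, the last a partner of Vta1, were at -0.009 ± 0.07, -0.0046 ± 0.07 and -0.06 ± 0.09. The sign of Chmp2b turned with DESeq2's size factors, to 0.0029.

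The VPS4 ATPase takes ESCRT-III apart. Vps4b stood at 54.6, 55.7 and 55.6 CPM (controls 1 to 3) and at 47.7, 51.2 and 54.2 CPM (stress 1 to 3). All 3 stress libraries lay below all 3 controls, with a gap of less than 1 CPM between stress 3 and control 1, and the log2 fold change was -0.11 ± 0.07. Vps4a, its close paralog, was at 101 ± 4.14 CPM (control) and 99.1 ± 3.19 CPM (stress) (-0.03 ± 0.06). Vta1, the VPS4 activator, was at 30.4 ± 1.88 CPM (control) and 32.1 ± 0.445 CPM (stress) (0.08 ± 0.08), with stress 1 to 3 within a narrow range at 31.9, 31.7 and 32.6 CPM.

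Syntenin and ALIX form a route that joins syndecan cargo to ESCRT-III. Pdcd6ip stood at 77.6, 75.3 and 75.5 CPM (controls 1 to 3) and at 70.6, 74.4 and 71.8 CPM (stress 1 to 3). Pdcd6ip, which encodes ALIX, was lower in every stress library than in every control, by a small margin, and its log2 fold change was -0.08 ± 0.06 with an interval from -0.21 to 0.06. Sdcbp stood at 183, 207 and 171 CPM (controls 1 to 3) and at 155, 192 and 179.8 CPM (stress 1 to 3). Sdcbp, which encodes syntenin-1, was lowest in stress 1 and highest in control 2, and its groups overlapped (-0.09 ± 0.10).

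The Rab GTPases steer endosomes between recycling, lysosome and cell surface. Rab27a stood at 13.3, 10.9 and 8.18 CPM (controls 1 to 3) and at 10.1, 9.97 and 8.94 CPM (stress 1 to 3). Rab27b stood at 62.02, 56.4 and 60.9 CPM (controls 1 to 3) and at 71.98, 48.7 and 49.1 CPM (stress 1 to 3). Rab27a and Rab27b act in docking multivesicular bodies at the cell surface and differed in pattern. Rab27a ranged widely among controls, and Rab27b ranged widely under stress, with stress 1 above every control and stress 2 and stress 3 below. Their log2 fold changes were -0.16 ± 0.18 and -0.08 ± 0.16. Without stress 1 that of Rab27b was -0.29, with an unadjusted p of 0.00659 and an adjusted p of 1 in edgeR's test. Rab35 stood at 61.4, 64.97 and 67.3 CPM (controls 1 to 3) and at 57.6, 60.1 and 61.2 CPM (stress 1 to 3). Rab35, which docks endosomes of oligodendroglial and other cells, was lower in all stress libraries than in all controls, by less than 1 CPM between stress 3 and control 1 (-0.11 ± 0.07). Rab11a was at 155 ± 1.48 CPM (control) and 151 ± 9.33 CPM (stress) (-0.04 ± 0.07), and Rab31, which drives an ESCRT-independent entry of receptors into vesicles, at 75.8 ± 8.77 CPM (control) and 71.5 ± 9.07 CPM (stress) (-0.08 ± 0.11). Rab7 stood at 96.8, 117 and 117 CPM (controls 1 to 3) and at 121, 114 and 115 CPM (stress 1 to 3). Rab7, which leads endosomes to the lysosome, was the one Rab above 0 with all libraries (0.08 ± 0.09), with control 1 as its low library. Without control 1 its log2 fold change was 0.0016, still above 0. The signs of Rab11a, Rab27a, Rab27b and Rab31 turned with 1 library left out.

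Ceramide and phosphatidic acid bend endosomal membrane. Smpd3 stood at 118, 89.7 and 109 CPM (controls 1 to 3) and at 104, 91.4 and 98.9 CPM (stress 1 to 3). Smpd3 encodes neutral sphingomyelinase 2, the enzyme that makes ceramide for exosome budding and that is abundant in neurons. Its controls spanned the range of the stress libraries, and its log2 fold change was -0.11 ± 0.11. Without control 2 this was -0.20, with an unadjusted p of 0.0460 and an adjusted p of 1 in edgeR's test, and without control 1 it was -0.02. Pld2 was at 23.96 ± 1.79 CPM (control) and 22.6 ± 2.30 CPM (stress) (-0.09 ± 0.11), and Arf6, the small GTPase that activates it, at 61.8 ± 1.96 CPM (control) and 58.5 ± 3.22 CPM (stress) (-0.08 ± 0.07).

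The flotillins, scaffold proteins of membrane microdomains, and Atp13a2, a lysosomal polyamine transporter of the P5 ATPase family whose loss is linked to parkinsonism, had fold changes above 0. Flot1 stood at 60.7, 66.6 and 83.4 CPM (controls 1 to 3) and at 85.4, 75.1 and 74.2 CPM (stress 1 to 3). Flot2 stood at 61.9, 70.8 and 78.2 CPM (controls 1 to 3) and at 73.6, 71.9 and 73.5 CPM (stress 1 to 3). Atp13a2 stood at 125, 114 and 145 CPM (controls 1 to 3) and at 154, 129.8 and 125 CPM (stress 1 to 3). In all of these genes control 3 and stress 1 were the highest libraries and controls 1 and 2, which were high for the tetraspanins, the lowest. The log2 fold changes were 0.16 ± 0.12, 0.05 ± 0.09 and 0.09 ± 0.11. That of Flot1 was 0.30 without control 3 (unadjusted p of 0.0142, adjusted p of 0.855, edgeR), 0.09 without stress 1 and 0.06 without control 1. Each turned below 0 with the oligodendrocyte level as a covariate, to -0.0060, -0.05 and -0.0083.

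Paralog pairs with a shared role were compared as ratios of CPM per kb within each library. Vps4a exceeded Vps4b by 6.34 ± 0.315-fold in controls and 6.76 ± 0.317-fold under stress (SD, n = 3 each). Rab27b exceeded Rab27a by 1.96 to 3.14-fold over the 6 libraries, Chmp2a exceeded Chmp2b by 2.05 to 2.33-fold, Stam exceeded Stam2 by 1.42 to 1.85-fold and Flot1 exceeded Flot2 by 1.40 to 1.72-fold. These ratios overlapped between the groups. The ratio of Vps37a to Vps37b was 2.00, 1.85 and 1.88 (controls 1 to 3) against 1.75, 1.67 and 1.55 (stress 1 to 3), and did not overlap (two-sided exact permutation p = 0.1, the smallest that 3 against 3 allows, and 0.6 after Benjamini-Hochberg adjustment over the 6 pairs). Exon lengths enter these ratios as a constant and depend on which isoforms are annotated, so the size of a ratio is less certain than its spread.

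A wider list of 67 other genes of the pathway was read from the same fit, and 62 of them passed the filter on low counts. Of these 33 had a log2 fold change above 0 and 29 below, with a median of 0.02, and 0 passed the threshold. Among 11 tested other ESCRT genes 8 were above 0 and 3 below with a median of 0.03, and the values ran from -0.04 to 0.13. Among 13 tested other tetraspanins and vesicle proteins, 2 were above 0 and 11 below, with a median of -0.07. The groups did not overlap for 3 of the 62, beside the 8.28% of all genes. Cd53 stood at 8.35, 8.24 and 8.18 CPM (controls 1 to 3) and at 7.29, 6.75 and 5.36 CPM (stress 1 to 3). Cd53, a tetraspanin of blood and microglial cells, was lower in every stress library (-0.35 ± 0.16, unadjusted p of 0.0525 in edgeR's test). Lamp1, a lysosomal membrane protein also found on vesicles, was at 265 ± 9.80 CPM (control) and 246 ± 10.2 CPM (stress) (-0.11 ± 0.06). Sytl5 stood at 36.8, 27.8 and 24.9 CPM (controls 1 to 3) and at 14.1, 25.4 and 23.6 CPM (stress 1 to 3). Sytl5, a Rab27 effector, was lowest in stress 1 and highest in control 1 (-0.50 ± 0.25).

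Among those above 0, Sdcbp2, the paralog of syntenin-1, was at 0.861 ± 0.299 CPM (control) and 1.48 ± 0.269 CPM (stress) (0.77 ± 0.37) with separate groups, and rests on few reads, 6 to 17 counts per library. Ykt6 stood at 66.4, 64.6 and 67.4 CPM (controls 1 to 3) and at 72.7, 70.9 and 69.2 CPM (stress 1 to 3). Ykt6, a SNARE needed for vesicle release, was higher in every stress library than in every control, by a small margin (0.10 ± 0.06). Smpd1, the acid sphingomyelinase of the lysosome, was at 114 ± 10.2 CPM (control) and 124 ± 3.67 CPM (stress) (0.12 ± 0.08). Sgms2 stood at 10.4, 15.3 and 4.29 CPM (controls 1 to 3) and at 2.57, 19.4 and 2.78 CPM (stress 1 to 3). Sgms2, a sphingomyelin synthase, was named here after its values were seen (-0.28 ± 0.94). It had the order of libraries of the tetraspanins in a wider range, high in controls 1 and 2 and stress 2 and low in the rest. Lamp1 and further genes of the wider list had this order too, as did 11.9% of all genes tested. The share over the wider list was not counted.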

How the data were processed

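Ribosomal RNA-depleted libraries were sequenced from the basolateral amygdala of 3 control and 3 stressed male mice, per the labels. The authors deposited raw read counts per gene symbol, 1 table per library. Tools listed in the submitters' processing notes are HTSeq 0.13.5, STAR 2.7.7a, edgeR 3.42.4 and FastQC 0.12.1, with the build mm39. Neither annotation nor strand setting is given there. Library sizes left out rows without a gene name: reads outside features (53.0 to 57.4% of the total), reads with several placements (6.97 to 8.16%) and ambiguous ones (0.162 to 0.194%). In all libraries the low-quality row repeated the row of several placements, so it entered the total a single time.

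Counts were tested in R 4.3.3 with edgeR 4.0.16 (TMM scaling, filterByExpr with a minimum count of 10 and total of 15, robust quasi-likelihood test, Benjamini-Hochberg adjustment over all 14739 genes, threshold 0.05). Standard errors came from the fold change and its F statistic. CPM used TMM-scaled library sizes, and CPM per kb used merged exon lengths of GENCODE M21 (GRCm38), another build than that of the counts, so lengths only were taken. The script was also run on simulated counts with known changes, drawn independently by gene and without shifts in neighbouring tissue. The outcome is not given here and bears on the code only. Alternatives used limma 3.58.1, DESeq2 1.42.0, other scalings and filters, covariates, a replicate block and left-out libraries. Counts of genes with separate groups under other scalings and without each library were added after seeing the data. P-values of edgeR's quasi-likelihood test set the difference between groups against the spread between these replicates, estimated for each gene with help from the other genes. No 2 libraries agreed within sampling noise (lowest chi-square per gene 2.95, control 2 against stress 2).

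The genes, lists, tests and alternatives were chosen with earlier results of these data known. All 38 exosome genes are named, and, of the other pathway genes, the 3 per direction with the smallest unadjusted p, with Sgms2 added after its values were seen.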

Additional observations from a re-analysis of the deposited data

How the results depend on the processing

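No exosome gene and no other pathway gene passed the threshold under any of 19 alternatives, and the smallest adjusted p of any of the 38 genes was 0.762 (edgeR, without stress 2). Over all genes 4 passed edgeR's likelihood ratio test, 2 passed DESeq2, and 0 to 1 passed when 1 library was left out (1 without control 3). The median log2 fold change of the 38 genes was 0.016 without controls 1 and 2 and stress 2, and -0.059 to 0.0026 with 1 library left out. Without 1 library, 2 to 9 of the 38 genes had groups that did not overlap and were lower under stress (9, or 23.7%, without control 3, beside 12% of all genes) and 1 to 5 were higher (5, or 13.2%, without control 2 or control 3, beside 7.88% and 11.5%). The direction of 15 genes held in every alternative and that of 23 turned in at least 1, for 20 of them only with libraries left out or in the covariate or block fits. The cause was not tested. Log2 fold changes that turned were 0.0012 for Chmp2a and 0.0057 for Chmp2b with DESeq2, 0.0029 for Chmp2b with its size factors in edgeR and -0.0012 for Chmp4b with total counts. With the choroid plexus level as covariate they were 0.14 for Cd63, 0.25 for Cd82, 0.23 for Cd9, 0.016 for Chmp2a and 0.026 for Vps37a. With the oligodendrocyte level they were -0.0083 for Atp13a2, 0.21 for Cd63, 0.019 for Cd81, 0.41 for Cd82, 0.30 for Cd9, 0.057 for Chmp2a, 0.0016 for Chmp2b, -0.0060 for Flot1, -0.051 for Flot2, 0.062 for Rab27a, 0.022 for Rab31, -0.024 for Rab7, 0.040 for Vps37a and 0.0022 for Vps4a. Without control 1 and stress 1 they were -0.024 for Atp13a2, 0.045 for Cd63, 0.0031 for Cd81, 0.28 for Cd82, 0.17 for Cd9, 0.062 for Chmp2a, 0.029 for Chmp2b, -0.0070 for Chmp4b, 0.0078 for Chmp5, -0.0063 for Flot1, -0.035 for Flot2, 0.066 for Rab31, -0.027 for Rab7, 0.00041 for Stam, 0.025 for Vps37a and 0.0095 for Vps4a. Without controls 1 and 2 and stress 2 they were -0.053 for Atp13a2, 0.19 for Cd63, 0.0094 for Cd81, 0.092 for Cd82, 0.069 for Cd9, 0.077 for Chmp2a, 0.12 for Chmp5, -0.062 for Flot1, -0.086 for Flot2, -0.018 for Hgs, 0.0084 for Rab11a, 0.22 for Rab27a, 0.11 for Rab31, 0.043 for Stam, 0.0066 for Vps25, 0.073 for Vps37a and 0.061 for Vps4a. With 1 library left out, the ranges of those that turned were -0.0044 to 0.19 for Atp13a2, -0.46 to 0.067 for Cd63, -0.69 to 0.16 for Cd82, -0.55 to 0.15 for Cd9, -0.052 to 0.033 for Chmp2a, -0.046 to 0.027 for Chmp2b, -0.026 to 0.14 for Flot2, -0.0082 to 0.082 for Hgs, -0.070 to 0.013 for Rab11a, -0.32 to 0.021 for Rab27a, -0.29 to 0.021 for Rab27b, -0.20 to 0.014 for Rab31, -0.15 to 0.010 for Snf8, -0.071 to 0.00066 for Stam, -0.031 to 0.23 for Tsg101, -0.12 to 0.012 for Vps25, -0.060 to 0.028 for Vps37a and -0.057 to 0.0030 for Vps4a.

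Deviations from the group mean of same-numbered libraries correlated at -0.318, 0.530 and 0.276, and those of differently numbered libraries at -0.638 to 0.484. With so few libraries, which also differed in RNA of neighbouring tissue, these values cannot tell whether the replicate numbers pair the samples. The main test treated the libraries as unpaired. With the replicate number as a block 0 genes passed, 410 had an unadjusted p under 0.05 in place of 496, and the median of the 38 genes was -0.039.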
